A study of Mus musculus with 8 samples.

Results

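Voltage-gated and potassium ion channel genes were described in tissue from below and above the dorsal aorta of mouse embryos. Members were taken by gene symbol: every potassium channel gene whose symbol starts with Kcn, every voltage-gated calcium channel gene (Cacna, Cacnb, Cacng) and every voltage-gated sodium channel gene (Scn followed by a number and a or b), without the long non-coding RNA Kcnq1ot1. This gave 128 genes of the 24675 that had 1 gene symbol in the deposited table, namely 89 potassium channel, 25 calcium channel and 11 sodium channel genes and 3 non-coding transcripts named after a potassium channel gene. The ventral samples came from below the aorta and the dorsal samples from the region above it, up to the notochord. Both were cut by laser microdissection from stained frozen sections of unfixed C57Bl/6 embryos at embryonic day 12.5 (E12.5), and the same embryos gave both tissues. There were 4 ventral and 4 dorsal arrays of the Affymetrix Mouse Gene 2.0 ST type, numbered as biological replicates 1 to 4 in each tissue. The labels give no mutation or treatment, and they do not say how many embryos went into an array. Values are log2 RMA intensities, which place each gene relative to the other genes on its array. A difference is the ventral minus the dorsal log2 value, and a "replicate number" joins the ventral and the dorsal array that carry it.

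Ion channels are pores in the cell membrane. Voltage-gated sodium and calcium channels open when the membrane depolarises and carry the upstroke of action potentials or calcium entry, while potassium channels return the membrane to rest or hold it there. A pore-forming subunit carries the current, and auxiliary subunits alter how many channels reach the membrane and how they open. Neurons, muscle and gland cells use many of them for excitation, and dividing and migrating embryonic cells use some to set membrane voltage and calcium.

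Few of these genes stood clearly above the arrays' background. A gene was tested when its level exceeded the median of the array (medians 3.59 to 3.65) on at least 4 of the 8 arrays, and 41 of the 128 channel genes did (32.0%, against 50.3% of all named genes). In all, 25 channel genes lay above the median on 8 of 8 arrays (19.5%, against 41.3% of all named genes), 26 on 1 to 3 arrays and 61 on none (47.7%, against 39.5%). The filter passed 10 of 25 calcium channel genes, 26 of 89 potassium channel genes and 3 of 11 sodium channel genes. By role it passed 24 of 81 pore-forming subunits, 12 of 34 auxiliary subunits and 3 of 10 modifier subunits. No tested channel gene was above the median on 4 arrays of one tissue and at most 1 array of the other. This count was not made over all genes tested, so whether channel genes differ from other genes in it is not known. Per array, 36 to 44 of the 128 genes were above the median in ventral tissue, and 37 to 47 in dorsal tissue. Genes under the median may be absent or too weakly expressed for these arrays, which the files do not separate.

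**Figure D1:**
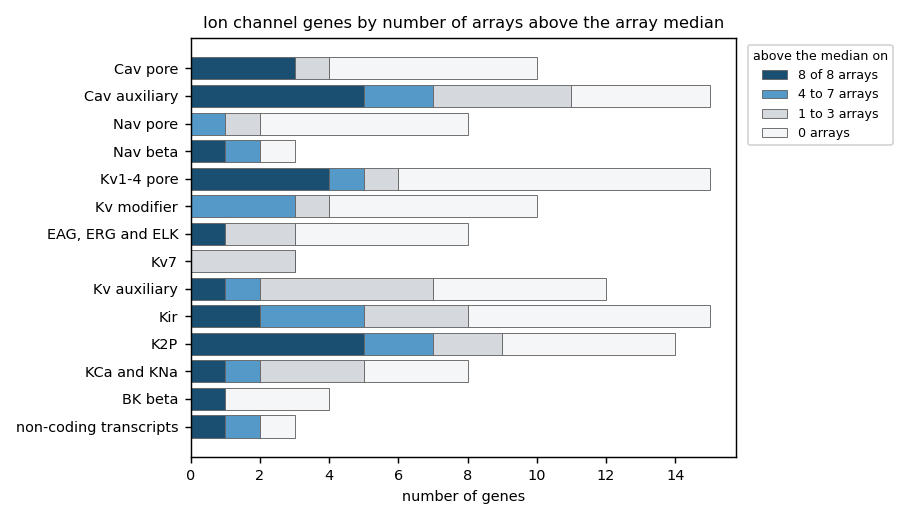
Number of ion channel genes (x axis) in each family (y axis), shaded by the number of the 8 arrays on which the gene lay above the array's median. The auxiliary subunits of calcium channels (Cav auxiliary) and the tandem-pore potassium channels (K2P) each had 5 genes above it on all 8 arrays, and the Kv7 family had none.

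No channel gene was called as different between the tissues. With p-values adjusted over the 12416 genes tested (Benjamini-Hochberg), limma called 0 of the 41 under a threshold of 0.05, where it called 0% of all genes tested, and the smallest adjusted p among channel genes was 0.216. An unadjusted p under 0.05 was reached by 3 of 41 channel genes (7.32%), against 8.26% of all genes tested. Of these, 2 were higher in ventral tissue (4.08% of all genes tested were) and 1 was lower (4.18%). Without the replicate number as a block, 1 of 41 had an unadjusted p under 0.05 (7.99% of all genes tested did), and limma again called 0, where it called 0.0322% of all genes tested. The median difference was 0.0078 over the 41 channel genes and -0.0039 over all genes tested, with 22 channel genes higher and 19 lower. The values of the ventral and dorsal arrays were free of overlap for 0 of 41 channel genes, against 4.39% of all genes tested. The direction was the same in 4 of 4 replicate numbers for 6 channel genes (14.6%, against 16.4% of all genes tested). A difference over 0.5 in size was seen in 6 of 41 channel genes (14.6%), against 9.3% of all genes tested. A difference over 1 was seen in 0 of 41, against 1.57% of all genes tested. The 95% interval of the difference lay within 1 on either side of 0, which is a 2-fold change, for 33 channel genes (80.5%, against 85.7% of all genes tested). In tissue pieces of mixed cells, fewer cells of a type and less RNA per cell cannot be told apart.

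**Figure D2:**
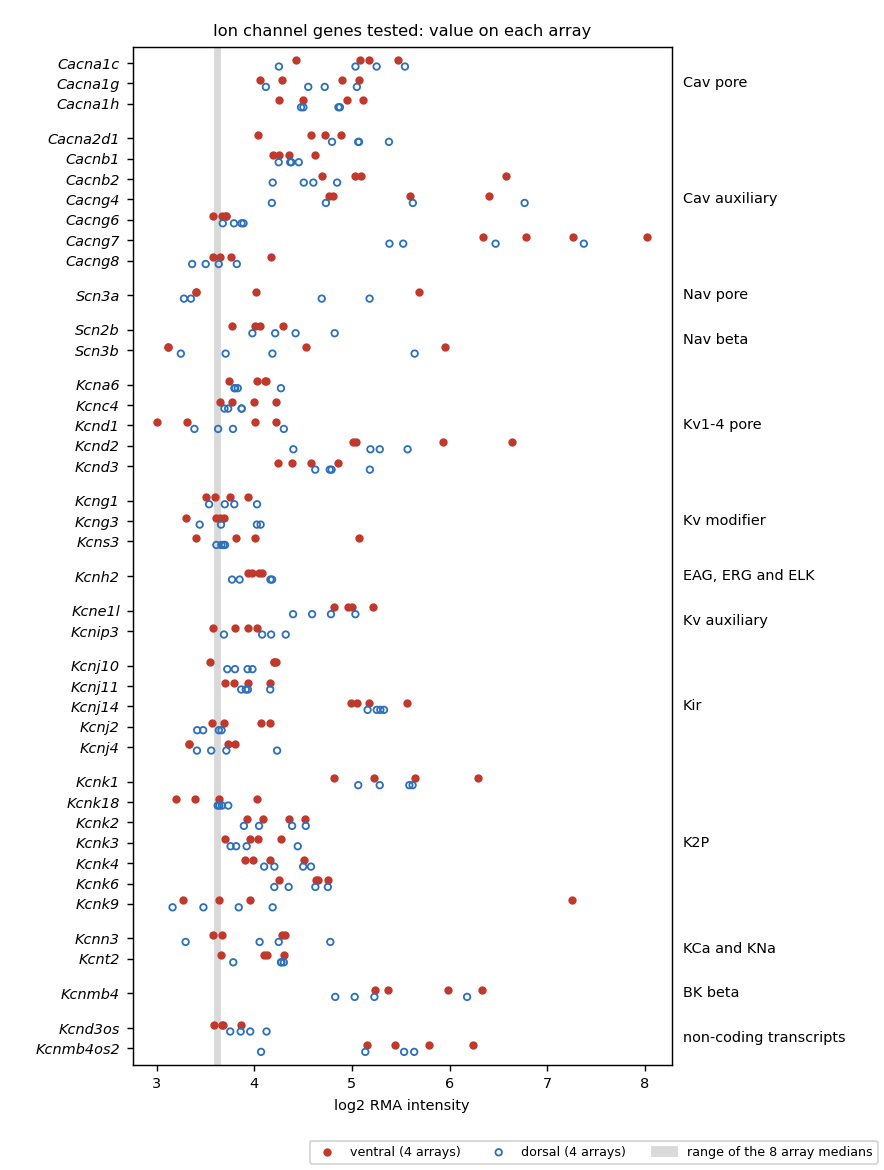
Log2 RMA intensity (x axis) of the 41 tested channel genes (rows, by family) on each array, with ventral arrays as filled red points, dorsal arrays as open blue points and the range of the 8 array medians as a grey band. The points of the 2 tissues overlap in every row, and Kcnk9 has a single ventral array at 7.25 far from its others.

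Among the pore-forming calcium channel subunits, 3 of 10 were tested, with differences from -0.03 to 0.02. Cacna1c, the pore of the L-type channel that carries calcium entry in smooth and cardiac muscle, had levels of 5.47, 5.08, 5.17 and 4.43 in ventral replicates 1 to 4, against 5.04, 5.54, 5.25 and 4.25 in dorsal replicates 1 to 4. Replicate 4 was the lowest in both tissues, and the tissues overlapped almost fully. Its difference was 0.02, with a 95% interval of -0.47 to 0.50. Cacna1g and Cacna1h form T-type channels, which open at small depolarisations. Cacna1g lay at 4.58 ± 0.48 in ventral and 4.61 ± 0.39 in dorsal tissue (SD, n = 4), a difference of -0.03 (-0.47 to 0.41). Cacna1h lay at 4.70 ± 0.40 in ventral and 4.68 ± 0.22 in dorsal tissue (SD, n = 4), a difference of 0.02 (-0.51 to 0.56). All 3 genes were above the array median on 8 of 8 arrays. Cacna1d, the other L-type pore used by neurons and endocrine cells, exceeded it only in replicate 1, at 3.82 in ventral and 3.72 in dorsal tissue. The pores of skeletal muscle (Cacna1s) and of presynaptic terminals (Cacna1a and Cacna1b) were above it on 0 of 8 arrays.

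The auxiliary calcium channel subunits held the widest differences of the calcium channel genes, in both directions. Of 15 genes, 7 were tested, 4 higher and 3 lower in ventral tissue, and 2 had an unadjusted p under 0.05 (8.26% of all genes tested did). Cacng7 had the smallest p of all 41 channel genes. It is grouped with the calcium channel gamma subunits by sequence, and its protein is known in the brain as a partner of AMPA-type glutamate receptors. Its level was 6.34, 8.02, 7.26 and 6.78 in ventral replicates 1 to 4, against 5.38, 7.37, 6.47 and 5.52 in dorsal replicates 1 to 4. The order of the replicate numbers was the same in both tissues, with replicate 2 highest and replicate 1 lowest. The ventral array was above its dorsal partner in 4 of 4 numbers (by 0.65 to 1.26), and the groups overlapped. The difference was 0.91 (SE 0.18, 95% interval 0.50 to 1.33), with an unadjusted p of 0.00122 and a limma adjusted p of 0.216. Without the replicate number as a block the unadjusted p was 0.086 and the limma adjusted p 0.69. The difference was 0.61 without ventral replicate 2, in a fit without the block. Over all fits with arrays left out it ranged from 0.61 to 1.31.

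Cacna2d1, the alpha2delta subunit that carries calcium channels to the membrane and binds gabapentin, was the only channel gene with an unadjusted p under 0.05 that was lower in ventral tissue. It lay at 4.89, 4.04, 4.73 and 4.58 in ventral replicates 1 to 4, against 5.38, 5.06, 5.07 and 4.80 in dorsal replicates 1 to 4. Only the ventral value of replicate 1 reached into the dorsal range. The difference was -0.52 (SE 0.20), below 0 in 4 of 4 numbers, with an unadjusted p of 0.0339 and a limma adjusted p of 0.554. It also had the smallest p of the channel genes without the block (unadjusted p = 0.0378). Without ventral replicate 2 the difference was -0.34.

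Cacnb2, a beta subunit prominent in heart, lay just outside that threshold. Its level was 5.03, 6.58, 4.69 and 5.09 in ventral replicates 1 to 4, against 4.19, 4.51, 4.85 and 4.60 in dorsal replicates 1 to 4. The ventral array of replicate 2 stood well above the other 7. The difference was 0.81 (SE 0.34, unadjusted p = 0.0501, limma adjusted p = 0.602), and it was 0.39 when both arrays of replicate number 2 were left out. Cacnb1, the beta subunit of skeletal muscle, differed by -0.0080 (SE 0.16). On the same ventral array of replicate 2 the smooth muscle marker list had its highest mean (6.51, 8 of 11 listed genes tested). Its other ventral means were 5.25 to 6.30, and its dorsal means were 4.82 to 5.35. The mesothelium and coelomic epithelium list (5 of 6 genes tested) was highest on that array as well, at 5.30, with 4.64 to 5.21 on the other ventral and 3.72 to 5.03 on the dorsal arrays. The part of either cell type in the Cacnb2 values was not tested.

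The other gamma subunits did not pass any threshold. Cacng8, like Cacng7 a partner of glutamate receptors, differed by 0.21 (SE 0.18), and Cacng6, a gamma subunit of striated muscle, by -0.14 (SE 0.13). Cacng6, Cacng7 and Cacng8 are consecutive protein-coding genes on chromosome 7 in the RefSeq annotation. Cacng7 was above the array median on 8 of 8 arrays, Cacng6 on 7 and Cacng8 on 5. Cacng4, also a partner of glutamate receptors, had the widest interval of all (-1.42 to 1.55 around a difference of 0.07) and is described with the spread across arrays.

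Of the sodium channel genes 3 of 11 were tested, and none had an unadjusted p under 0.05. Scn3a, the pore known from embryonic brain, was the only one of 8 pore genes that passed the filter, and Scn2a, its neighbour on chromosome 2 and a main pore of brain axons, was above the median on 0 arrays. Scn3a lay at 5.69, 3.40, 4.01 and 3.40 in ventral replicates 1 to 4, against 5.18, 4.69, 3.35 and 3.28 in dorsal replicates 1 to 4. Replicate 1 was highest in both tissues. The difference was 0.0017 (SE 0.32, 95% interval -0.75 to 0.76). Scn3b, a beta subunit of neuronal sodium channels, lay at 5.95, 3.12, 4.53 and 3.11 in ventral replicates 1 to 4, against 5.64, 3.71, 3.25 and 4.19 in dorsal replicates 1 to 4. Replicate 1 again stood highest in both tissues, and the difference was -0.02 (SE 0.37). Scn2b, another beta subunit, differed by -0.32 (SE 0.18) with levels of 4.04 ± 0.21 in ventral and 4.36 ± 0.36 in dorsal tissue (SD, n = 4). Scn7a, a sodium sensor of glial and other cells, was above the median on a single array, ventral replicate 3 (4.62, against 2.48 to 2.84 on the other ventral arrays and 2.53 to 2.64 on the dorsal arrays).

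**Figure D3:**
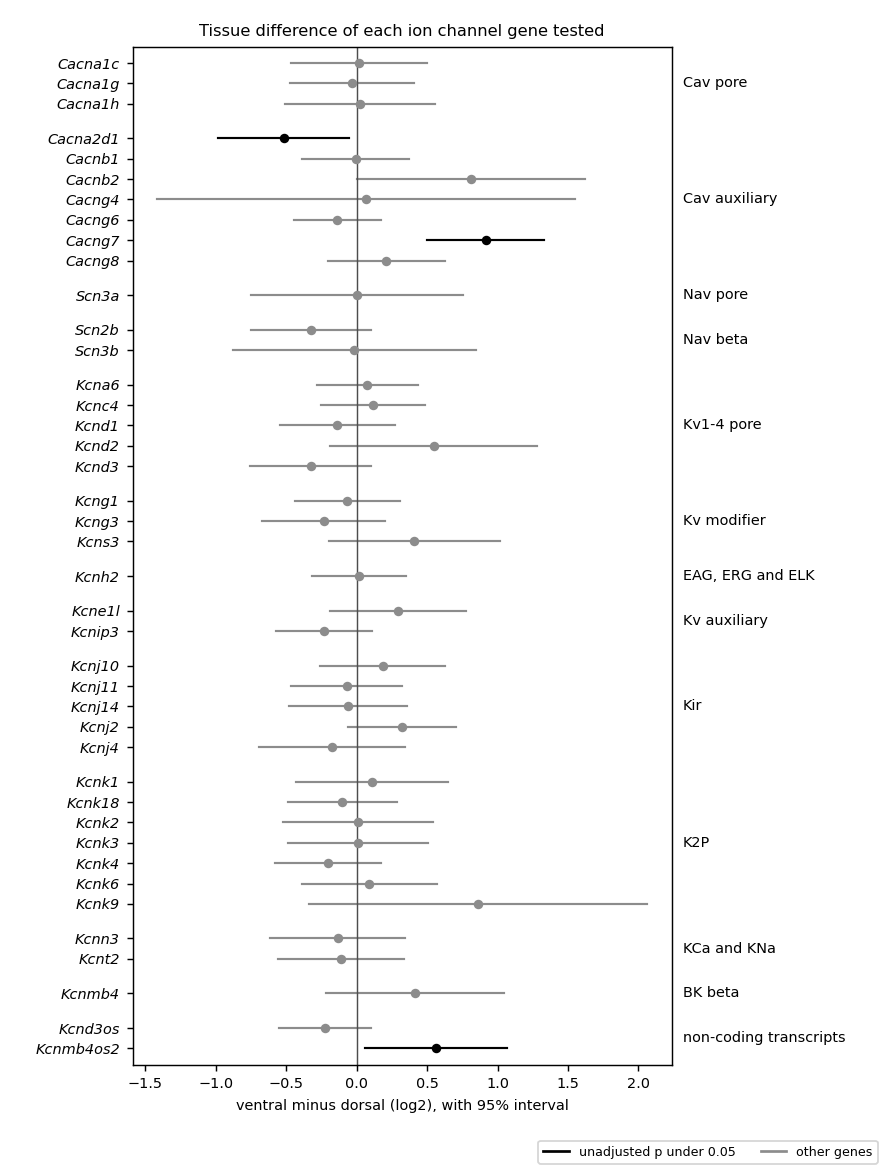
Ventral minus dorsal difference on the log2 scale (x axis) of the 41 tested channel genes (rows, by family), as a point with its 95% interval from limma. Intervals of Cacna2d1, Cacng7 and Kcnmb4os2, drawn in black, leave out 0, that of Cacng7 running from 0.50 to 1.33, and that of Cacnb2 ends at 0.

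Among the voltage-gated potassium channels, of 15 genes of the Shaker, Shab, Shaw and Shal pores, 5 were tested, and 3 of these belong to the Shal group, whose channels carry the fast inactivating A-type current of neurons and heart. Kcnd2 had levels of 5.04, 6.64, 5.93 and 5.01 in ventral replicates 1 to 4, against 5.57, 5.19, 5.28 and 4.40 in dorsal replicates 1 to 4. Ventral replicates 2 and 3 lay above every dorsal array and the other 2 inside their range. The difference was 0.55 (SE 0.31, limma adjusted p = 0.732), and it was 0.22 without ventral replicate 2. Kcnd3 ran the other way, at 4.51 ± 0.26 in ventral and 4.84 ± 0.24 in dorsal tissue (SD, n = 4), a difference of -0.33 (SE 0.18, limma adjusted p = 0.721). Kcnd1 differed by -0.14 (SE 0.17), Kcna6, a Shaker-type pore, by 0.08 and Kcnc4, a Shaw-type pore, by 0.12.

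Modifier subunits are silent alone and change the behaviour of Shab-type pores when they join them. The 3 of 10 that were tested were Kcns3, Kcng1 and Kcng3. Kcns3 lay at 3.40, 5.08, 4.01 and 3.81 in ventral replicates 1 to 4 and between 3.61 and 3.70 on the dorsal arrays, again with ventral replicate 2 highest. Its difference was 0.41 (SE 0.26) and became 0.076 without that array. The difference of Kcng3 was -0.24 (SE 0.19), or -0.072 without replicate number 3, and that of Kcng1 was -0.07 (SE 0.16). No Shab-type pore was among the genes tested: Kcnb2, the Shab-type gene in the table, was above the median on 3 arrays, all dorsal (3.68, 3.80 and 4.56 in replicates 1, 3 and 4).

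In the remaining voltage-gated families few genes were tested. Kcnh2, the ERG pore that repolarises the heart, was the only 1 of 8 ether-a-go-go genes tested, at 4.01 ± 0.06 in ventral and 3.99 ± 0.21 in dorsal tissue (SD, n = 4). Of the Kv7 genes 0 of 3 were tested, among them Kcnq1, a pore of heart and epithelia, which spanned 3.32 to 3.67 in ventral and 3.34 to 3.51 in dorsal tissue. Kcnq5, a Kv7 pore of brain and smooth muscle, was above the median only in ventral replicate 1 (3.96). Auxiliary subunits of these channels gave 2 tested genes of 12. Kcne4, a KCNE subunit that dampens Kv7 currents, was above the median only in dorsal replicate 3 (3.76). Among the tested genes, Kcne1l, an X-linked relative of the KCNE subunits, differed by 0.29 (SE 0.20), and Kcnip3, a calcium-binding partner of Shal pores, by -0.23 (SE 0.14), lower in 4 of 4 replicate numbers.

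Inward rectifiers pass potassium near the resting voltage, and 5 of 15 were tested. Kcnj2, the classical rectifier of muscle and endothelium, lay at 4.06, 3.57, 4.16 and 3.69 in ventral replicates 1 to 4, against 3.64, 3.48, 3.41 and 3.66 in dorsal replicates 1 to 4. The ventral array was higher in 4 of 4 numbers, by 0.02 to 0.74, with a difference of 0.32 (SE 0.16, limma adjusted p = 0.673). Only 5 of the 8 values lay above the array median. Kcnj10, of glial cells and kidney, differed by 0.19, Kcnj4 by -0.18, Kcnj11, the pore of ATP-sensitive channels in endocrine cells and muscle, by -0.07 and Kcnj14 by -0.06. Kcnj8, the ATP-sensitive pore that marks pericytes, passed the median on 3 arrays only and was not tested. Its levels were 3.44, 3.60, 4.17 and 4.38 in ventral replicates 1 to 4, against 3.53, 3.53, 3.64 and 3.49 in dorsal replicates 1 to 4. Abcc9, the regulatory subunit that joins Kcnj8 in vessel walls, differed by 0.20 (SE 0.18). The pericyte marker list (6 of 6 genes tested, Abcc9 among them) ranged from 4.66 to 5.49 in ventral and from 4.63 to 4.91 in dorsal tissue. Its genes went both ways, 4 higher and 2 lower in ventral tissue. Rgs5 differed by 2.48 (SE 0.55) and Cspg4 by -0.80 (SE 0.16), so the list mean is not a level of pericytes. The part of pericytes in the Kcnj8 values was not tested.

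Tandem-pore channels carry the background potassium leak, and with 7 of 14 genes tested and 5 above the median on all arrays they were the best represented potassium family. Kcnk2, which responds to stretch and lipids, and Kcnk3, which responds to acid, differed by 0.0078 (95% interval -0.53 to 0.54) and 0.0088 (-0.49 to 0.50). Kcnk1 differed by 0.11, Kcnk6 by 0.09, Kcnk18 by -0.10 and the mechanically gated Kcnk4 by -0.21 (SE 0.16), which was lower in 4 of 4 replicate numbers. Kcnk9, an acid-sensitive leak channel expressed from the maternal allele, had levels of 7.25, 3.64, 3.95 and 3.27 in ventral replicates 1 to 4, against 4.19, 3.84, 3.48 and 3.16 in dorsal replicates 1 to 4. A single ventral array set its difference of 0.86 (SE 0.51), which became 0.12 without replicate number 1. Without ventral replicate 1 alone, in a fit without the block, it was -0.049. The sympathoadrenal marker list (9 of 14 genes tested) had its highest mean on that same array, 7.08, against 4.46 to 6.07 on the other ventral arrays and 4.44 to 4.94 on the dorsal arrays. The macrophage list (12 of 12 genes tested) was also highest on that array, at 5.66, against 5.07 to 5.57 on the other ventral and 4.57 to 5.06 on the dorsal arrays. Of the ventral arrays it was the highest for the neuron, Schwann precursor, spinal cord progenitor, skeletal muscle and endothelium lists too. The part of any of these cells in the Kcnk9 values was not tested.

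Potassium channels opened by calcium or sodium gave 2 tested pores of 8. Kcnn3, a small-conductance calcium-activated channel, differed by -0.14 (SE 0.20), and Kcnt2, a sodium-activated channel, by -0.11 (SE 0.19). The large-conductance pore Kcnma1 and its smooth muscle partner Kcnmb1 were above the median on 0 of 8 arrays. Kcnma1 spanned 2.96 to 3.46 in ventral and 3.06 to 3.41 in dorsal tissue, and Kcnmb1 2.94 to 3.16 in ventral and 2.68 to 2.98 in dorsal tissue. By contrast Kcnmb4, the beta subunit of that channel in neurons, was above it on all 8, at 5.73 ± 0.52 in ventral and 5.32 ± 0.60 in dorsal tissue (SD, n = 4), a difference of 0.41 (SE 0.27), which was 0.11 without replicate number 1. Kcnn4, the calcium-activated channel of red blood cells, was above the median on 2 arrays, ventral replicate 4 (3.70) and dorsal replicate 4 (4.37). These were also the arrays with the highest erythroid marker mean of their tissue (7 of 10 genes tested), 7.98 and 9.09. The other means were 6.85 to 7.33 in ventral and 6.86 to 7.04 in dorsal tissue. The liver list (5.79 in ventral and 8.24 in dorsal tissue) and the epithelium and mesonephros list (4 of 8 genes tested, 5.51 in ventral and 5.77 in dorsal tissue) were also highest on replicate 4 of each tissue. The part of any of these cells in the Kcnn4 values was not tested.

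The symbol rule also took 3 non-coding transcripts, of which 2 were tested. Kcnmb4os2, which overlaps Kcnmb4 in the annotation, had levels of 6.24, 5.79, 5.44 and 5.16 in ventral replicates 1 to 4, against 5.53, 5.64, 5.14 and 4.07 in dorsal replicates 1 to 4. It was higher in ventral tissue in 4 of 4 numbers, with a difference of 0.56 (SE 0.22, unadjusted p = 0.0342, limma adjusted p = 0.557). Without the block its unadjusted p was 0.152, and the difference was 0.22 without dorsal replicate 4. Kcnd3os, which overlaps Kcnd3, differed by -0.23 (SE 0.14). The sources used here do not state whether the probes of overlapping transcripts are separate by strand, so the values of Kcnmb4os2 and Kcnmb4, and of Kcnd3os and Kcnd3, may share signal.

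Some of these genes varied widely from array to array. The range over the 8 arrays exceeded 2 in 8 of the 41 channel genes (19.5%), against 6.53% of all genes tested. These were Scn3a, Scn3b, Cacng4, Kcnk9, Cacng7, Cacnb2, Kcnd2 and Kcnmb4os2. The tissue difference exceeded the SD of both tissues in 6 channel genes (14.6%, against 18.9% of all genes tested). It was below both SDs in 22. That count was not made over all genes tested, so whether channel genes differ from other genes in it is not known. Cacng4, described because of its range and thus chosen after its values were seen, lay at 4.81, 4.76, 5.59 and 6.40 in ventral replicates 1 to 4, against 6.77, 5.62, 4.73 and 4.18 in dorsal replicates 1 to 4. Its highest ventral value was in replicate 4 and its highest dorsal value in replicate 1. Of the 41 genes, 11 had their highest value on ventral replicate 2 (26.8%, against 13.9% of all genes tested) and 8 on ventral replicate 1 (19.5%, against 11.6%). Ventral replicates 3 and 4 held the highest value of 1 gene each (2.44%, against 11.2% and 12.2% of all genes tested). Ventral replicate 1 also held the lowest value of 11 genes (26.8%, against 14.96%), and ventral replicate 2 that of 2 genes (4.88%, against 15.8%).

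Markers of nerve cells also varied between arrays. The neuron list (12 of 14 genes tested, with Elavl4 and Snap25 outside the filter) had means of 6.68, 4.83, 6.45 and 5.16 in ventral replicates 1 to 4, against 7.62, 5.59, 4.99 and 4.81 in dorsal replicates 1 to 4. Its 3 highest arrays were dorsal replicate 1 and ventral replicates 1 and 3. The Schwann precursor list (4 of 6 genes tested) had the same 3 highest arrays, at 5.28 and 5.19 in ventral replicates 1 and 3 and 5.99 in dorsal replicate 1. Scn3b was highest on these 3 arrays, and Scn3a on ventral replicate 1 and dorsal replicates 1 and 2. The mean of the tested spinal cord progenitor genes (6 of 13) reached 5.50 in dorsal replicate 1. It was 3.69 to 4.21 on the ventral arrays and 4.08 to 4.24 on the other dorsal arrays. Sox2 (7.83) and Zic1 (6.72) were its highest genes in dorsal replicate 1. Of the listed genes outside the filter, Pax3 was at 5.70 there. Sox1, Pax6, Olig2, Nkx6-1, Dbx1 and Hes5 lay between 2.60 and 3.52 on that array. Cacng4 was highest on dorsal replicate 1 (6.77). It was next highest on ventral replicate 4 (6.40), where the spinal cord progenitor mean was 3.69, the lowest of the 8 arrays. The part of nerve, Schwann precursor or spinal cord progenitor cells in these channel values was not tested. No marker gene of these lists was called by limma.

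**Figure D4:**
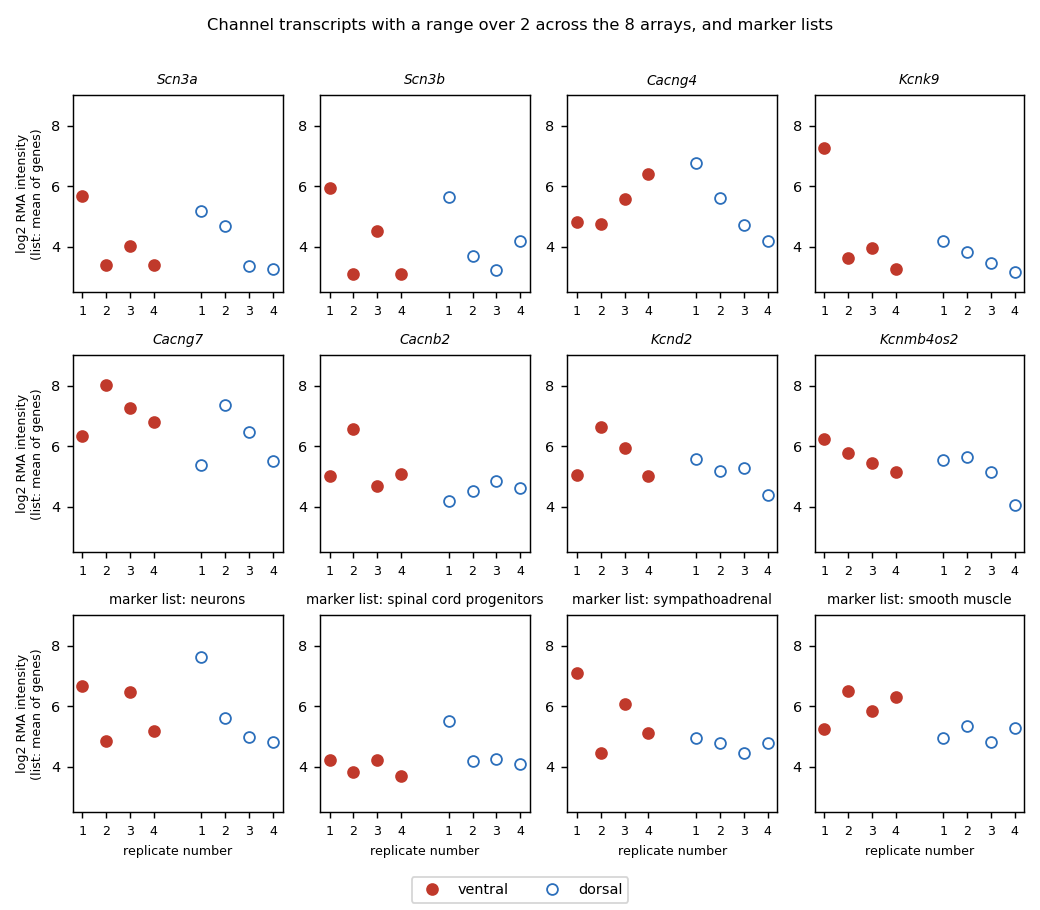
Log2 RMA intensity (y axis) on each array (x axis, replicate number, ventral in filled red and dorsal in open blue) of the 8 channel transcripts whose range exceeded 2, and the mean over tested genes of 4 marker lists in the bottom row. Scn3a and Scn3b are highest in replicate 1 of both tissues, where the neuron list is at 6.68 in ventral and 7.62 in dorsal tissue.

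Of the 87 channel genes not tested, few stood far above the median anywhere, and 10 had a value above 4 on any array, the highest being 5.14. When all 24675 named genes were tested without a filter, 6 of the 128 channel genes had an unadjusted p under 0.05 (4.69%, against 6.23% of all genes) and limma called 0. The 2 of these that lie outside the filter and were chosen after their values were seen are Kcnab1 and Cacna2d3. Kcnab1, a cytoplasmic beta subunit of Shaker channels, lay at 3.61, 3.50, 5.14 and 2.96 in ventral replicates 1 to 4 and between 2.78 and 3.48 on the dorsal arrays (unadjusted p = 0.0111). Cacna2d3, an alpha2delta subunit, lay between 2.70 and 3.16 on the ventral arrays, against 4.25, 4.05, 2.76 and 2.75 in dorsal replicates 1 to 4 (unadjusted p = 0.0388). In each case 1 or 2 arrays of a tissue stood apart from the rest.

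A list of channel partners and regulators outside the 128 genes was as even between the tissues. Of its 30 genes, 28 were in the table and 15 were tested, 7 higher and 8 lower in ventral tissue. An unadjusted p under 0.05 in limma was reached by 0 of them (8.26% of all genes tested did). The median difference of the list was -0.03. The smallest p-values belonged to Fgf11 (0.37, SE 0.16), Sestd1 (-0.55, SE 0.24) and Stac2 (0.31, SE 0.17). Fgf11 is an intracellular relative of fibroblast growth factors that binds sodium channels, and Stac2 is an adaptor of L-type channels. Sestd1 binds lipids and TRP channels, which are not among the 128 genes. Rest, the repressor that keeps many neuronal channel genes silent outside the nervous system, lay at 5.75, 6.63, 6.90 and 6.90 in ventral replicates 1 to 4, against 6.72, 6.63, 6.96 and 6.85 in dorsal replicates 1 to 4. The difference of Rest was -0.25 (SE 0.22). Its lowest array, ventral replicate 1, was the array with the highest Scn3a, Scn3b and Kcnk9. Dorsal replicate 1, the next highest array for each of these channel genes (5.18, 5.64 and 4.19), had Rest at 6.72. The part of Rest in these channel values was not tested. Among 22 genes of related cation channels only 3 were tested: the endolysosomal channels Tpcn1 (-0.54, SE 0.21, unadjusted p = 0.0349, limma adjusted p = 0.56) and Tpcn2 (0.04, SE 0.19), and the proton channel Hvcn1 (0.0069, SE 0.13). The pacemaker channels Hcn2, Hcn3 and Hcn4 and the sodium leak channel Nalcn were not above the median on enough arrays.

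Marker lists were also compared between the tissues. They were chosen with earlier results of these data known, so they are not an independent check of the tissue labels. Sclerotome and cartilage genes, of which 14 of 15 were tested, had means of 4.66 to 4.96 in ventral and 5.69 to 6.73 in dorsal tissue, and smooth muscle genes 5.25 to 6.51 in ventral and 4.82 to 5.35 in dorsal tissue. Endothelial genes (11 of 12 tested) had means of 5.0 to 5.40 in ventral and 4.38 to 5.52 in dorsal tissue. Liver genes (2 of 8 tested) reached 5.79 in ventral replicate 4 and 8.24 in dorsal replicate 4, with 3.84 to 4.21 on the other ventral and 3.95 to 4.18 on the other dorsal arrays. Leaving out replicate number 4 left 0 channel genes called and 2 with an unadjusted p under 0.05. Over the genes tested, array pairs correlated at r = 0.907 to 0.948 in ventral tissue, 0.907 to 0.957 in dorsal tissue and 0.907 to 0.936 when one array of each tissue was taken, where genes serve as points and not as replicates. With 4 arrays a tissue, precision is limited by their number.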

How the data were processed

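The deposited values are log2 RMA intensities, made by the authors with Affymetrix Expression Console and RMA, per the submitters' processing notes, with no version given in the sources used here. Per the labels' protocols, 200 to 1000 pg of total RNA was amplified before hybridisation, and any spread this added was not tested. Of 25429 rows, 24675 had 1 gene symbol in the platform table and 754 had none. Symbols and neighbours come from a RefSeq table of assembly GRCm38.p6, and the build behind the array rows is not given.

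Genes above the array median on at least 4 of 8 arrays (12416) were tested. Two-sided tests used limma 3.58.1 (R 4.3.3), a fixed block for the replicate number, and trended, robust moderation by eBayes. Adjustment was by Benjamini-Hochberg, with a threshold of 0.05. The script was tested on simulated data. Intervals cover 95%. If numbers do not mark embryos, the block pairs arrays arbitrarily, and p-values with it may misstate the spread between samples. P-values without the block measure only the spread between these samples.

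Members and gene lists were chosen with earlier results of these data known. Genes were named by rule (the 10 smallest p in each direction, the 2 widest per family, a fixed list, and the 3 smallest p among partners and among related channels). Other genes named were chosen after their values were seen. Cacnb3, on the fixed list, was not analysed here. Alternatives were no or a random block, other filters, renormalization, array weights and left-out arrays. Fits that left out a single array had no block, and fits that left out a replicate number kept it.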

Additional observations from a re-analysis of the deposited data

Results flagged for a closer look

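In 114 groups of 4 arrays, the highest or lowest array was checked for a gap to the others above Dixon's critical share of the group's range, and 10 stood apart. Chance gives about 1 in 20 such groups. Among channel genes, Kcnj10 was low in ventral replicate 1 (3.55, next 4.20), Kcnt2 was low in dorsal replicate 4 (3.78, next 4.27) and Scn7a was high in ventral replicate 3 (4.62, next 2.84). Among list means, spinal cord progenitor genes were high in dorsal replicate 1 (5.50, next 4.24) and skeletal muscle genes in ventral replicate 1 (4.96, next 4.58). In dorsal replicate 4 the means of 5 lists were high: related cation channels (4.75, next 4.60), macrophages (5.06, next 4.65), erythroid cells (9.09, next 7.04), liver parenchyma (8.24, next 4.18) and mesothelium with coelomic epithelium (5.03, next 3.84).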

How the results depend on the processing

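Limma called 0 channel genes in each of the 20 alternatives run. The count at an unadjusted p under 0.05, 3 as reported, was 1 with no replicate block, 1 with a random replicate block and 6 without a filter (128 genes), and 0 to 4 when arrays were left out. It was 0 without dorsal replicate 3 and 1 without ventral replicate 2, ventral replicate 4 or dorsal replicate 1, all in fits without the block. After subtraction of each tissue's mean, the ventral and dorsal arrays of a number correlated at r = 0.107, 0.0291, 0.0217 and 0.12 for numbers 1 to 4, against -0.126 to 0.102 for other pairs, so the data do not settle that numbers pair embryos. With arrays left out, these differences kept their sign but moved by over 1.5 times: Cacng7 (0.61 to 1.31), Cacnb2 (0.39 to 1.13), Cacna2d1 (-0.63 to -0.34), Kcnmb4os2 (0.22 to 0.74), Kcnd2 (0.22 to 0.90), Kcnmb4 (0.11 to 0.70), Kcns3 (0.076 to 0.63), Kcng3 (-0.40 to -0.072), Kcnj2 (0.18 to 0.42), Kcnd3 (-0.46 to -0.21), Kcne1l (0.18 to 0.47), Kcnip3 (-0.36 to -0.13), Kcnk4 (-0.33 to -0.10), Kcnj10 (0.087 to 0.39), Scn2b (-0.45 to -0.17), Cacng6 (-0.20 to -0.087), Cacng8 (0.056 to 0.36) and Kcnd3os (-0.30 to -0.15). Some small differences changed sign: with array weights Cacna1c was -0.0020, Cacna1g 0.0055 and Scn3b 0.11, and after quantile normalization Scn3a was -0.0016. With arrays left out the ranges across 0 were -0.33 to 0.072 (Kcnd1), -0.057 to 0.080 (Kcnh2), -0.34 to 0.062 (Kcnj4), -0.20 to 0.16 (Kcnk2), -0.10 to 0.26 (Kcnk3), -0.049 to 1.28 (Kcnk9), -0.40 to 0.092 (Kcnn3), -0.26 to 0.055 (Kcnt2), -0.24 to 0.22 (Cacna1c), -0.20 to 0.14 (Cacna1g), -0.17 to 0.24 (Cacna1h), -0.52 to 0.43 (Scn3a) and -0.61 to 0.47 (Scn3b). The cause was not tested.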
